A study of Mus musculus with 18 samples.

Results

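Pck1, G6pc, Fbp1, Pcx, Tat, Gckr, Pklr, Pfkfb1 and Slc2a2 encode enzymes, a regulatory protein and a transporter that set the direction of glucose flux in the liver. They were chosen by name and make up 9 of the 21938 protein-coding genes of GENCODE vM21 on the autosomes and the X and Y chromosomes. For each gene the window was the gene body with 50 kb on both sides (mouse build mm10), and the 9 windows span 1190.369 kb in all. The windows were intersected with 6 lists of called regions from ChIP-Seq of male mouse liver. Lamin B1, a protein of the meshwork under the nuclear envelope, and H3K9me3, a histone mark of heterochromatin, had been profiled at 3 months (young) and 21 months (old), with 2 replicates per antibody and age. Foxa2, a forkhead transcription factor that can bind closed chromatin, had been profiled at 12 weeks in wild-type (WT) mice and in littermates lacking Zmpste24 (Zmpste24 KO), with 3 replicates per genotype. The study's text gives C57BL/6 as the strain of the young and old mice and names no strain for the Foxa2 mice. Zmpste24 is the protease that completes the processing of prelamin A, and its loss affected the whole body rather than hepatocytes alone. H3K9me2 was profiled as well and was not analysed here.

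Replicates were merged before calling, so each list holds 1 set of positions per condition, without signal, score or spread between mice. A difference between lists could therefore not be set against replicate error, and no test was made. A gene is described as inside or outside a called region. For start sites and the 50 kb windows, the share of all protein-coding genes in the same state stands beside the counts over the 9 genes. The lamin B1 lists held 1624 domains in young and 1519 in old livers (median length 200 and 340 kb), the H3K9me3 lists 2784 and 2496 regions (150 and 160 kb), and the Foxa2 lists 4960 WT and 8177 Zmpste24 KO sites. The H3K9me3 lists hold fewer regions than the study's text gives for either age, so a gene outside them is only outside the lists used here, and the effect of that difference on the H3K9me3 results was not tested. By the study's read summary, lamin B1 had more reads in young livers and H3K9me3 more in old livers, and the part of read depth in the differences between ages was not tested. Of 6 hepatocyte marker genes, 5 had a WT and 4 a Zmpste24 KO Foxa2 site in their windows, while the 4 bile duct markers had no site of either genotype. At 3 Kupffer cell markers, 3 stellate cell markers and 3 endothelial markers, the numbers with a site were 0, 0 and 1 in WT and 1, 1 and 2 in Zmpste24 KO. Of all protein-coding genes, 30.5% had a WT and 38.5% a Zmpste24 KO site in the window. The difference of these short marker lists from those shares was not tested.

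Gluconeogenesis rebuilds glucose from lactate, amino acids and glycerol during fasting, and it bypasses the irreversible steps of glycolysis with enzymes of its own. Pcx and Pck1 carry carbon around the pyruvate kinase step, Fbp1 reverses the phosphofructokinase step and G6pc the first step of glycolysis, while Tat supplies carbon from tyrosine. Of the genes that control glycolysis, Gckr restrains the entry of glucose into it and Pfkfb1 sets the level of the activator of phosphofructokinase. Pklr is the pyruvate kinase of liver, and Slc2a2 (GLUT2) carries glucose across the hepatocyte membrane. Glucagon acting through cAMP, glucocorticoids, insulin and the hepatic transcription factors, Foxa2 among them, are known to act on these genes.

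The sequences on which the Foxa2 results below turn were read from the reference assembly GRCm38.p6, with motif words in capitals. The first is the stretch of 250 bases before the RefSeq start of Pck1 (position 173153073), all of which lay inside both the WT and the Zmpste24 KO Foxa2 site, at chr2:173152823-173153072, plus strand. Its capitals mark a GATA word on the minus strand and a word of the cAMP response type that was looked up after the sequence had been read.
Pck1 promoter: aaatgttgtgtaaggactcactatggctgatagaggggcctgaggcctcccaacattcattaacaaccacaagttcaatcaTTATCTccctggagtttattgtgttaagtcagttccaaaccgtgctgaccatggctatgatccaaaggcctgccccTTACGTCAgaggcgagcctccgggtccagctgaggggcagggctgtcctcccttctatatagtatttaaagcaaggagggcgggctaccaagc
The next sequences are stretches of 120 bases from the Foxa2 sites that held a forkhead word, TGTTTAC or TATTTAC, which is the core bound by Foxa proteins. They are shown on the strand of the gene, and the capitals mark the forkhead word, read as its complement at Fbp1. The stretches lie at chr13:62907948-62908067 (minus strand, Fbp1), chr3:28681871-28681990 (plus strand, Slc2a2), chr8:109993045-109993164 (plus strand, Tat) and chr3:89103577-89103696 (plus strand, Pklr).
Fbp1 WT site: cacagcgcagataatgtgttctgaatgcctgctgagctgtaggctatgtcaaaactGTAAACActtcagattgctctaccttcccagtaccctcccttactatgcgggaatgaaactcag
Slc2a2 WT site: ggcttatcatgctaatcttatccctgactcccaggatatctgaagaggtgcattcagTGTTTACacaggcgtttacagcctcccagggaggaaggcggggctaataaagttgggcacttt
Tat Zmpste24 KO site: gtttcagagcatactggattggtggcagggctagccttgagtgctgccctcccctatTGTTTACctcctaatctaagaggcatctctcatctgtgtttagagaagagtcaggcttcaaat
Pklr Zmpste24 KO site: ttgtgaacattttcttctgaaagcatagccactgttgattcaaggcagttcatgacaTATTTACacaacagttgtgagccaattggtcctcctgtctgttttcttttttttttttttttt

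In old livers lamin B1 domains reached 7 of the 9 genes, against 5 in young livers, and the 2 that were added were Pck1 and Fbp1. The young domains touched the windows of G6pc, Pcx, Tat, Gckr and Pklr, compared with 44.4% of all protein-coding genes. The old domains touched the windows of the same 5 genes and those of Pck1 and Fbp1, compared with 68.5% of all genes. No gene left a lamin B1 domain with age. Pfkfb1 and Slc2a2 had no lamin B1 in the window at either age, as did 27.5% of all genes.

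The state of the start sites was the same as that of the windows. Start sites of 5 of the 9 genes lay inside a young domain (36.0% of all genes) and those of 7 inside an old domain (62.3%). The start sites of G6pc, Pcx, Tat, Gckr and Pklr were inside a domain at both ages, as were 31.8% of all start sites. Those of Pck1 and Fbp1 were inside an old domain only, as were 30.5%, and none of the 9 was inside a young domain only, against 4.26% of all genes. By window rather than start site, the old-only state covered the same 2 genes and 28.1% of all genes. The old-only state of Pck1 and Fbp1 was thus a common one, and 2 of 9 is no larger a share than that of all genes.

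**Figure D1:**
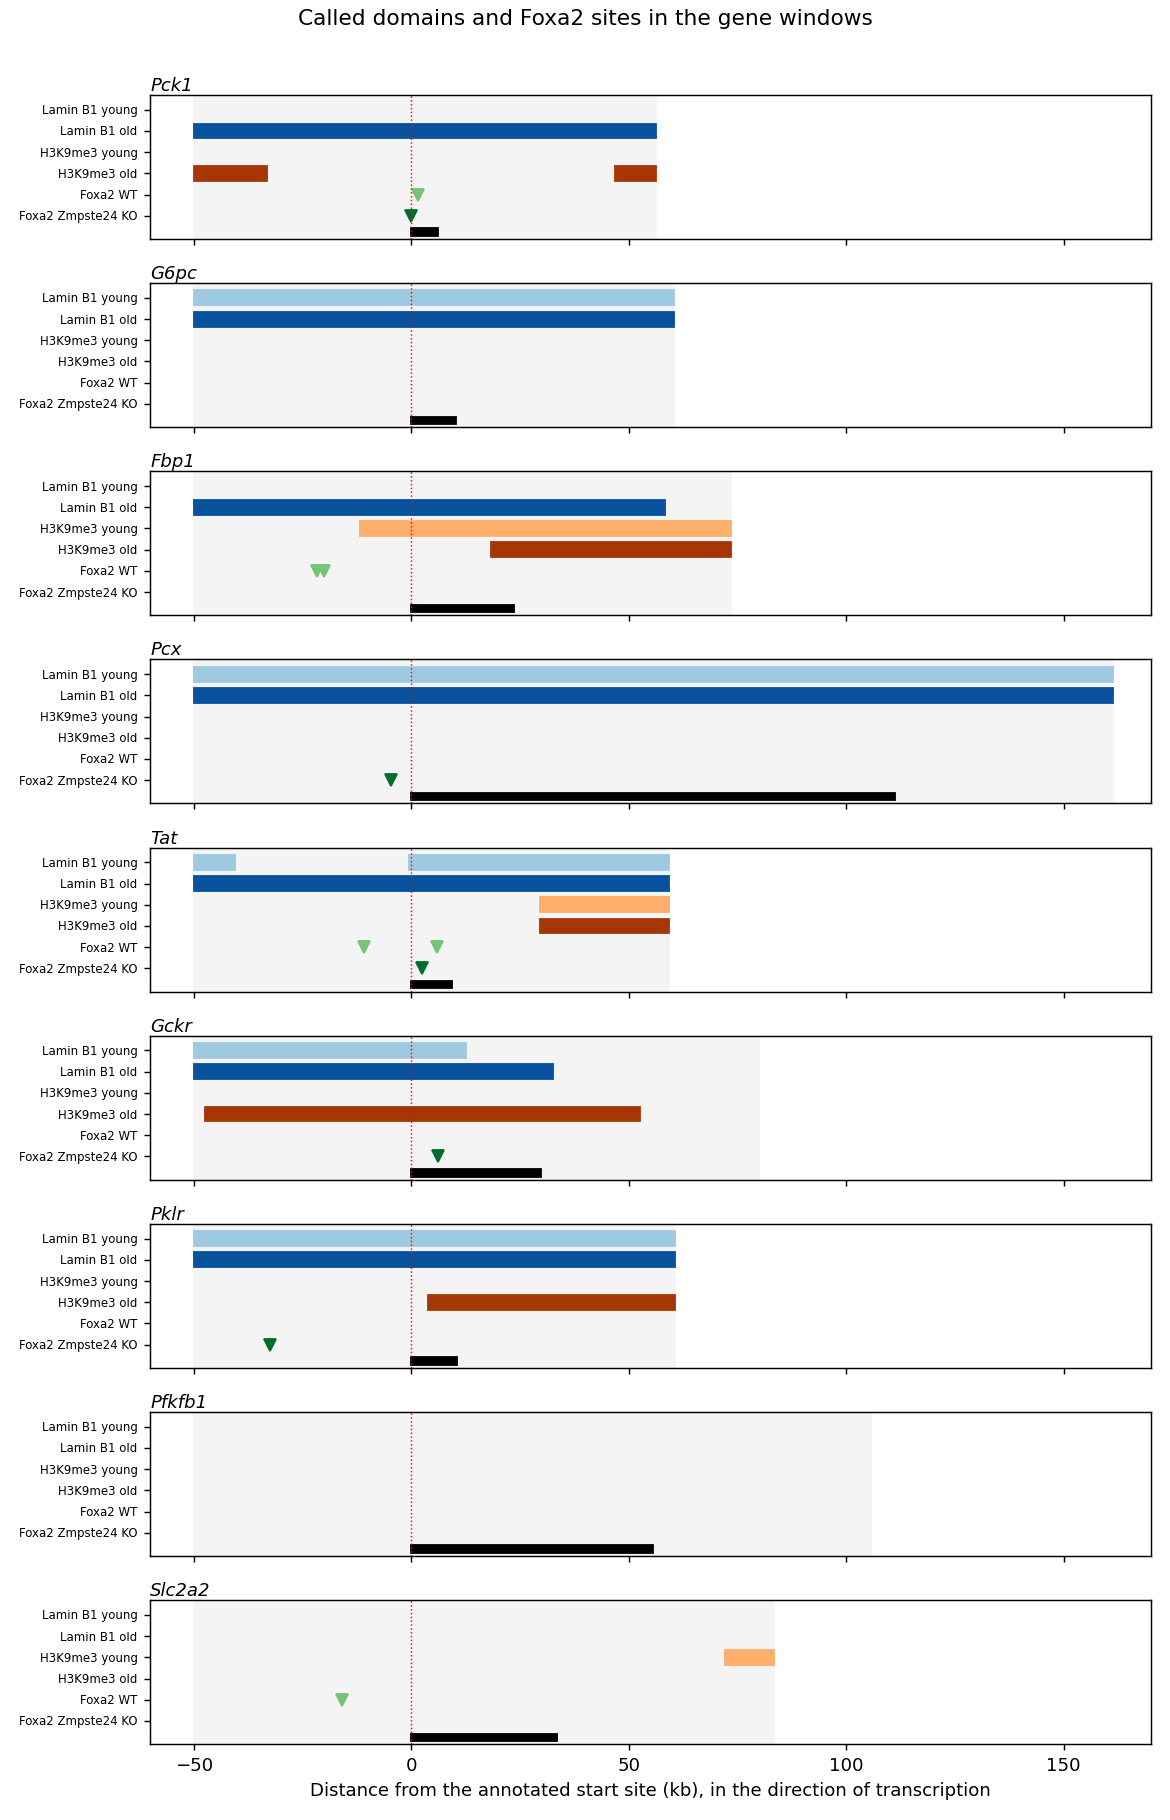
Map of the 9 gene windows, each with 50 kb on both sides of the gene body (grey), drawn by distance in kb from the annotated start site in the direction of transcription, with the gene as a black bar, called regions as coloured bars and Foxa2 sites as triangles at their midpoints. Pck1 lies wholly inside an old lamin B1 domain and outside any young one, G6pc and Pcx lie wholly inside domains at both ages, and the Pfkfb1 window holds none of the 6 lists.

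Pck1, cytosolic phosphoenolpyruvate carboxykinase and a classical target of fasting hormones, showed the largest step in percentage of the window. Its gene body occupies chr2:173153048-173159273 on the plus strand. No young lamin B1 domain entered its window, and the closest one ended 623.048 kb upstream of the start site. In old livers a single domain from 171950001 to 173860000 (1910 kb) covered 100% of the window, and this domain held the start sites of 23 protein-coding genes. The neighbours Ctcfl and Zbp1, the other protein-coding genes in the window, moved with it, since both start sites were outside the young and inside the old domains. The Pck1 start site lay 706.952 kb from the nearer edge of the old domain, well away from the limits of the call.

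Fbp1, the gluconeogenic fructose bisphosphatase of liver, lies at chr13:62864753-62888282 on the minus strand. Its window held no young lamin B1, with the closest young domain 1061.719 kb upstream of its start site. The old domain there was short, from 62830001 to 63020000 (190 kb), and covered 87.7% of the window and all of the gene body. It held 3 protein-coding start sites, those of Fbp1 and its paralog Fbp2 among them. At Fbp1 and at Pck1 the gene body therefore went from 0 to 100% lamin B1 coverage, by domains of very different length.

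G6pc, the catalytic subunit of the phosphatase that releases free glucose from the hepatocyte, was covered completely at both ages. Its gene body lies at chr11:101367561-101377903. The young domain around it spanned 101170001 to 101760000 (590 kb, 29 start sites), and the old domain spanned 99960001 to 103550000 (3590 kb, 135 start sites). Its 7 neighbours in the window (Psme3, Aoc2, Aoc3, Gm27029, Aarsd1, Ptges3l and Rundc1) had their start sites inside a domain at both ages too. Pcx, pyruvate carboxylase, which makes oxaloacetate from pyruvate, was also wholly inside lamin B1 domains in young and old livers. Its gene at chr19:4510472-4621752 is the longest of the 9, and its domains measured 650 kb and 820 kb.

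Tat, tyrosine aminotransferase, a liver enzyme long used as a marker of glucocorticoid action, stood at the edge of a young domain. Its gene lies at chr8:109990437-109999803, and the young domain there began at 109990001, 0.436 kb before the start site. A second young domain ended at 109950000, which left a gap of 40 kb upstream of Tat. A single old domain of 1330 kb closed this gap, and coverage of the window went from 63.4% to 100%. Marveld3, a neighbour of Tat whose start site lies in the gap, was outside lamin B1 in young and inside it in old livers, while the start sites of Phlpp2 and Chst4 were inside at both ages. Because domains were called in windows of 10 kb, the young state of the Tat start site rests on the last window of the call, and when the domains were shortened by 10 kb at each end it was lost, which left 4 of the 9 start sites inside young domains.

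At the glycolytic control genes lamin B1 coverage changed at Gckr and not at Pklr. Gckr, a nuclear inhibitory protein that restrains the use of glucose, lies at chr5:31297443-31327314. The young domain there ended inside the gene, at 31310000, and covered 42.0% of the gene body. The old domain ended at 31330000, beyond the gene, and covered all of it, while coverage of the window went from 48.2% to 63.6%. Of the 7 annotated Gckr transcripts, 6 started inside the young domain and all 7 inside the old one. Pklr, at chr3:89136142-89146784, was wholly inside a lamin B1 domain at both ages, and here the old domain was the shorter (980 kb with 38 start sites, against 1720 kb with 68).

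Pfkfb1 and Slc2a2 stood apart from lamin B1 in both lists. Slc2a2, at chr3:28697903-28731359, was 1367.903 kb from the closest young domain and 417.903 kb from the closest old one, so the domain upstream had its edge nearer in old livers without reaching the gene. Pfkfb1, at chrX:150588229-150643878, was 19381.772 kb from the closest domain at either age. The X chromosome held 2 lamin B1 domains in the young and 1 in the old list, and 0.316% and 0.211% of its 948 protein-coding genes had one in the window. The state of Pfkfb1 is thus that of nearly every gene on its chromosome, and its position cannot be told apart from the calling of domains on the X chromosome of male mice.

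Lamin B1 covered 47.4% of the summed length of the 9 windows at the young age (564.192 kb) and 70.5% at the old age (838.7 kb). The whole list also grew, from 466.28 Mb in young to 930.32 Mb in old livers, so a rise is not particular to these genes. The gain was 106.226 kb at Pck1, 108.282 kb at Fbp1, 40 kb at Tat and 20 kb at Gckr, with no loss at any of the 9. Median coverage of a window was 48.2% in young and 100% in old livers for these genes, beside 0% and 98.5% for all protein-coding genes.

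**Figure D2:**
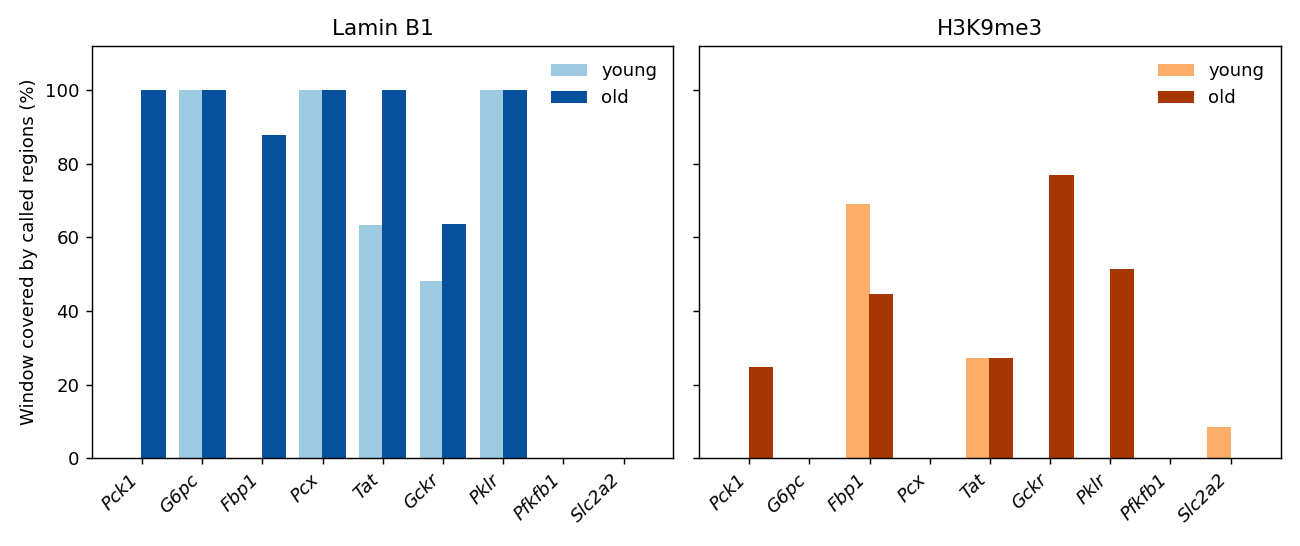
Percentage of each gene window covered by called lamin B1 domains (left) and H3K9me3 regions (right) in young and old livers, 1 merged list per bar and hence no error bars. Lamin B1 goes from 0 to 100% at Pck1 and from 0 to 87.7% at Fbp1, while H3K9me3 goes from 0 to 77.0% at Gckr and from 69.0% to 44.7% at Fbp1.

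H3K9me3 moved in both directions. Young regions touched the windows of Fbp1, Tat and Slc2a2 (3 of 9, against 25.6% of all genes), and old regions those of Pck1, Fbp1, Tat, Gckr and Pklr (5 of 9, against 41.6%). The mark entered the windows of Pck1, Gckr and Pklr in old livers only, a state shared by 24.5% of all genes. It was present at Slc2a2 in young livers only, as at 8.44% of all genes. Of the start sites, only that of Fbp1 was inside a young region (12.9% of all genes) and only that of Gckr inside an old region (24.4%).

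At Fbp1 lamin B1 and H3K9me3 went opposite ways over the gene. The young H3K9me3 region, 62770001 to 62900000, covered the whole gene body and its start site. The old region had the same left end and stopped at 62870000, so that it covered 22.3% of the gene body and lay 18.282 kb from the start site. All 3 annotated Fbp1 transcripts started inside the young region and none inside the old one. The upstream end of the gene, where transcription starts, was thus under H3K9me3 without lamin B1 in young livers and under lamin B1 without H3K9me3 in old livers. Fbp2, the paralog downstream, kept its start site under H3K9me3 at both ages.

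At Gckr lamin B1 and H3K9me3 both rose with age, with lamin B1 over the gene body going from 42.0% to 100%. No H3K9me3 region was in the window in young livers. An old region from 31250001 to 31350000 covered the gene body completely and 77.0% of the window. The closest young region was 1167.443 kb away. The old region also took in the start sites of the neighbours Krtcap3, Ift172 and Fndc4, and it left that of Nrbp1 outside. At Pklr an old region from 89140001 to 89240000 began 3.859 kb inside the gene and covered 63.7% of the gene body, whereas its start site stayed outside. The neighbours Hcn3, Clk2, Scamp3 and Fam189b had their start sites under this region.

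At Pck1 the old H3K9me3 regions flanked the gene. One ended at 173120000, 33.048 kb upstream of the start site, and the next began at 173200001, 46.953 kb downstream. Neither touched the gene body, but they covered the start sites of Ctcfl and Zbp1 on either side. At Tat the edge nearest the gene was the same at both ages, 29.564 kb downstream of the start site, and 27.3% of the window was covered in each list. Beyond the window the Tat region lengthened from 140 kb to 580 kb. Slc2a2 had a young region of 30 kb over the neighbouring Eif5a2 start site, 72.098 kb downstream, and no old region in the window. G6pc, Pcx and Pfkfb1 had no H3K9me3 region in the window in either list, as did 10963 of the 21938 protein-coding genes.

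Of the summed window length, H3K9me3 covered 10.6% at the young age (126.41 kb) and 22.5% at the old age (268.061 kb). The gains were 100 kb at Gckr, 56.784 kb at Pklr and 26.226 kb at Pck1, and coverage decreased by 30 kb at Fbp1 and decreased by 11.359 kb at Slc2a2. Median H3K9me3 coverage of a window was 0% in young and 24.7% in old livers for these genes. For all protein-coding genes the median was 0% at both ages, and the upper quartile was 2.77% in young and 52.4% in old livers. Bases covered by lamin B1 and H3K9me3 together were found in young livers at Tat alone (29.803 kb), and in 10.8% of the windows of all genes. In old livers they were found at 5 of the genes, against 35.9% of all genes, with 80 kb at Gckr, 56.784 kb at Pklr, 40 kb at Fbp1, 29.803 kb at Tat and 26.226 kb at Pck1.

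**Figure D3:**
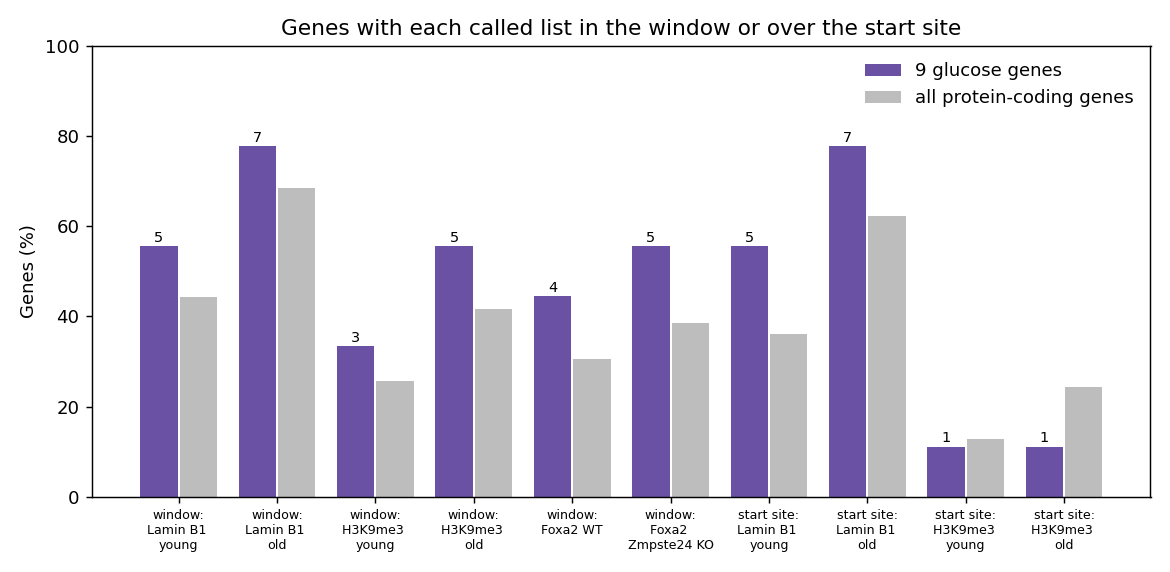
Percentage of genes with each called list in the window or over the start site, for the 9 glucose genes (number of genes above each bar) and for all 21938 protein-coding genes. Old lamin B1 is highest in both sets of genes (7 of 9 and 68.5% by window), and start sites inside H3K9me3 are fewest among the 9 genes (1 at each age).

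Foxa2 sites were found at 4 of the 9 genes in WT and at 5 in Zmpste24 KO livers, and only Pck1 and Tat had sites of both genotypes. WT sites lay in the windows of Pck1, Fbp1, Tat and Slc2a2, against 30.5% of all protein-coding genes. Zmpste24 KO sites lay in those of Pck1, Pcx, Tat, Gckr and Pklr, against 38.5%. Fbp1 and Slc2a2 had WT sites only (11.3% of all genes), Pcx, Gckr and Pklr had Zmpste24 KO sites only (19.3%), and Pck1 and Tat made up the 2 genes with both (19.2%). A site of either genotype was present at 7 of the 9, compared with 49.9% of all genes. The WT sites numbered 6 and the Zmpste24 KO sites 5, and just 1 of each, at Pck1, overlapped the other list. Over the whole lists, 27.2% of WT and 16.7% of Zmpste24 KO sites overlapped a site of the other genotype by at least 1 bp. All 5 Zmpste24 KO sites were narrower than the median of their list (889 bp), and within the gene body alone 2 of the 9 genes had a WT and 3 a Zmpste24 KO site. Which genotype reached more genes depended on the window, since with 100 kb on both sides 6 genes had a WT site (9 sites) and 5 a Zmpste24 KO site (7 sites). The share of all genes was computed for the 50 kb windows only, so none stands beside the counts at the gene body or at 100 kb.

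The shared site at Pck1 covered the promoter printed above in both genotypes. The WT site ran from 173152589 to 173156526 (3938 bp), over the start site and exons 1 to 6 of 10. Only 26 of 4956 WT sites (0.525%) were at least that wide. The Zmpste24 KO site ran from 173152534 to 173153412 (879 bp), over the start site and exons 1 to 2, and was close to the median width of its list (889 bp). The 2 calls had 824 bp in common, nearly the whole of the narrower one. The mutant call reached no exon beyond exon 2, whereas the WT call went on over 4 more. With a reciprocal overlap of at least 50%, the Pck1 sites no longer counted as shared and the number of shared sites fell to 0.

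Tat carried sites of both genotypes at different positions. The WT sites were at 109979257 to 109980127 (871 bp), centred 10.745 kb upstream of the start site, and at 109995394 to 109997232 (1839 bp), centred 5.876 kb downstream over exons 8 to 9 of 12. The latter was among the widest 3.55% of WT sites. The Zmpste24 KO site was at 109992556 to 109993317 (762 bp), centred 2.499 kb downstream over exon 4, and it was 2076 bases from the nearer WT site. All 3 were intragenic or upstream of Tat itself, which was the closest protein-coding start site to each of them. The upstream WT site lay in the gap between the young lamin B1 domains and inside the old one.

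Of the gluconeogenic genes with sites of 1 genotype only, Fbp1 had 2 WT sites and no Zmpste24 KO site. They lay upstream of the gene, at 62907948 to 62908562 and 62909331 to 62910424, centred 19.973 and 21.595 kb from the start site and 768 bases apart. The closest Zmpste24 KO site was 385.064 kb from the start site. Both WT sites were intergenic, outside the young H3K9me3 region and inside the old lamin B1 domain. Pcx had the opposite pattern, with a Zmpste24 KO site at 4505435 to 4506255, centred 4.627 kb upstream, and its closest WT site 212.902 kb away. G6pc had no site of either genotype in the window, and the closest were 75.156 kb (WT) and 141.054 kb (Zmpste24 KO) from the start site.

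On the glycolytic side the sites at Gckr and Pklr were called in Zmpste24 KO livers only. The Gckr site at 31303284 to 31304137 lay in an intron, 6.267 kb downstream of the start site, and 46.0% of its bases were repeats by the assembly's soft mask. It was the only one of the 11 Foxa2 sites at these genes inside an H3K9me3 region, that of old livers. The Pklr site at 89103472 to 89103796 was narrow, at 325 bp, and 98.3% of Zmpste24 KO sites were at least as wide. It lay 32.508 kb upstream of Pklr, and Fdps, an enzyme of the isoprenoid pathway, had the closest start site at 1.675 kb. Slc2a2 had 1 WT site, at 28681644 to 28682375, centred 15.894 kb upstream, and its closest Zmpste24 KO site was 173.696 kb away. Pfkfb1 was 2176.729 kb from the closest WT and 738.266 kb from the closest Zmpste24 KO site. On the X chromosome 4.43% of genes had a WT and 9.18% a Zmpste24 KO site in the window.

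**Figure D4:**
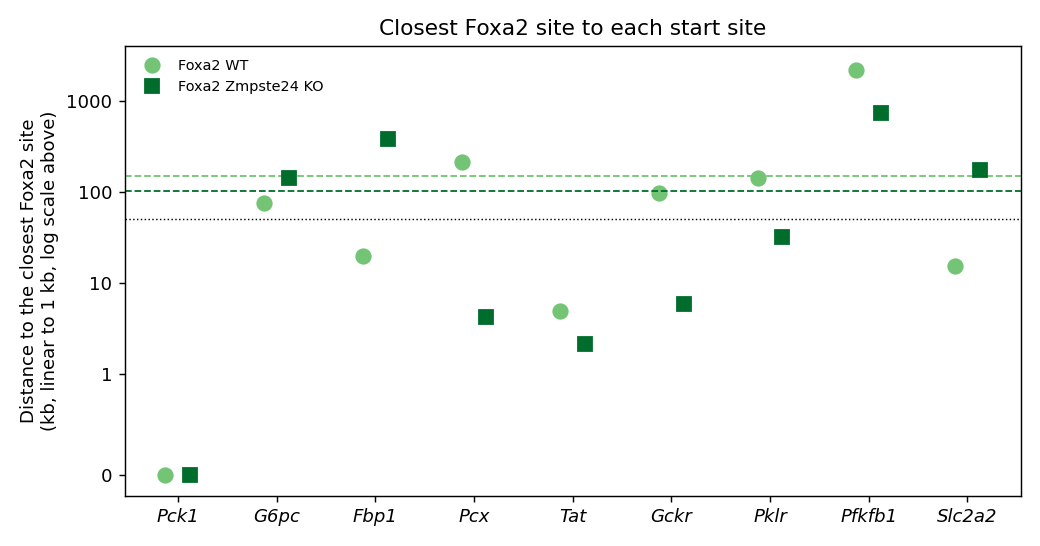
Distance in kb (linear to 1 kb, log scale above) from each annotated start site to the nearest edge of the closest Foxa2 site in WT and Zmpste24 KO livers, with dashed lines at the median over all protein-coding genes (149.623 kb WT, 102.487 kb Zmpste24 KO) and a dotted line at 50 kb. Pck1 is at 0 in both genotypes, Fbp1 and Slc2a2 are closer to a WT site, and Pcx, Gckr and Pklr are closer to a Zmpste24 KO site.

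The Foxa2 lists and the lamin B1 lists came from different mice and were compared by position alone. Of the 6 WT sites at these genes, 1 had its midpoint inside a young lamin B1 domain and 5 inside an old one, with the Slc2a2 site outside both. Of all WT sites, 35.5% (95% Wilson interval 34.2 to 36.9%) and 63.5% (62.2 to 64.9%) did. Of the 5 Zmpste24 KO sites, 4 lay inside a young and all 5 inside an old domain, the Pck1 site being the one outside the young domains. Over the whole Zmpste24 KO list the shares were 28.0% (27.0 to 29.0%) and 49.2% (48.1 to 50.2%). These intervals cover counting error only. The sites were counted because they lie near the 9 genes, so their counts partly repeat the lamin B1 state of the genes. The Pcx and Pklr windows, for example, were 100% covered at both ages, so any site there lay inside. None of the WT sites was inside H3K9me3 at either age (19.4% and 23.0% of all WT sites), and of the Zmpste24 KO sites none was inside a young and 1 inside an old region (21.6% and 22.4%).

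Forkhead words were present in 2 of the 6 WT sites, the Fbp1 site nearer the gene and the Slc2a2 site, and in 43.8% of all WT sites. Among the Zmpste24 KO sites they were present in 2 of 5, at Tat and Pklr, and in 40.8% of the whole list. The Tat site held 2 such words, TGTTTAC and TATTTAC, and the Pklr word was centred 3 bases from the midpoint of its narrow site. The Pck1 sites, the only ones called in both genotypes, held no forkhead word in either call, in spite of the 3938 bp of the WT site. The words were searched on both strands, and their absence concerns these letters alone.

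Words of other hepatic and hormonal factors were searched in the same way. The GATA word AGATAA was in 4 of 6 WT sites (41.7% of all) and 1 of 5 Zmpste24 KO sites (46.4%), and the word at Pck1 in capitals above was part of both calls. The glucocorticoid receptor hexamer TGTTCT was in all 6 WT sites and 3 of the 5 Zmpste24 KO sites, beside 55.7% and 57.5% of the lists. At Tat, a glucocorticoid-responsive gene, each of the 3 sites held it. The full palindromic glucocorticoid response element, which contains the hexamer, was in none of them. The HNF4 words were CAAAGTCCA and CAAAGGTCA, and the latter was in both Pck1 sites, 421 bases before the start site (5.51% of WT and 4.48% of Zmpste24 KO sites held an HNF4 word). A Sox word, CCATTGT or CCTTTGT, was found in the wide Tat WT site and the Pklr Zmpste24 KO site (29.5% and 29.3% of the lists). An E-box, CACGTG, was in the Pck1 WT site alone (14.5% and 10.5%). No site at the 9 genes held a cAMP response word (TGACGTCA or TGACGCAA) or a C/EBP word (TTGCGCAA or TTGCAAAA). A wider site has more room for a word, and site width was not taken into account in these comparisons. The Pck1 WT site (3938 bp) and the wide Tat WT site (1839 bp) were among the widest 0.525% and 3.55% of WT sites. The Zmpste24 KO sites were all narrower than the median of their list.

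The RefSeq promoter table gave 14 promoters for the 9 genes, with 250 bases before and 50 after each start, 4 of them for Pfkfb1. None of the 14 held a forkhead word, which 6.54% of all 32851 promoters did. The GATA word was in 7 of the 14, against 11.2% of all promoters. These were 1 promoter each of Pck1, Fbp1, Tat, Gckr and Pklr and 2 of Pfkfb1, and the word lay at bases -39 to -34 from the start of Gckr and -35 to -30 from that of Pklr. The E-box was in a Pcx promoter (7.15%), a Sox word in a Pklr promoter (9.28%), an HNF4 word in a Pfkfb1 promoter (0.95%) and the hexamer TGTTCT in the Gckr promoter (19.0%). No promoter of the 9 genes held a cAMP response word from the list (2.26%). The variant TTACGTCA was at 93 to 86 bases before the RefSeq start of Pck1 (bases -93 to -86, in capitals above) and in 0.499% of all promoters. This variant was added after the sequence had been seen, so its presence at Pck1 is a description only. The GC content of the 14 promoters was 41.3 to 61.7%, around the median of 52.7% over all promoters.

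By presence or absence of each of the 6 lists in the window, the 9 genes showed 8 different patterns. Pfkfb1, with none of the lists, had the commonest of all 64 patterns (2986 genes, 13.6%). G6pc, with lamin B1 at both ages and nothing else, shared its pattern with 1414 genes (6.45%), and Pcx, which differed from it by the Zmpste24 KO Foxa2 site, with 788 (3.59%). Gckr and Pklr had the same pattern, lamin B1 at both ages with H3K9me3 in old livers and Foxa2 in Zmpste24 KO livers, which was that of 613 genes (2.79%). Tat had all 6 lists in its window (454 genes, 2.07%) and Pck1 all but the young lamin B1 and young H3K9me3 (398 genes, 1.81%). Least common were the patterns of Fbp1 (119 genes, 0.542%) and Slc2a2 (59 genes, 0.269%), the genes whose Foxa2 sites were called in WT livers only.

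Other genes of glucose metabolism were counted in the same windows, as 38 further enzymes and transporters of glycolysis and gluconeogenesis, 14 genes of glycogen metabolism and 24 hormonal and transcriptional regulators. Lamin B1 was in the window of 22, 4 and 14 of them in young (44.4% of all genes) and of 32, 7 and 21 in old livers (68.5%). The start sites of 13 enzyme genes were inside an old domain only, among them Fbp2, Ldha (lactate dehydrogenase), Pck2 (the mitochondrial paralog of Pck1) and Slc37a4, which moves the substrate of G6pc into the endoplasmic reticulum. Hk1, Hk3, Pfkfb4, Got1, Gpt, Gpt2, Sds and Slc2a1 were in this state too. Of the glycogen genes, Gys2 (glycogen synthase of liver), Pygl (glycogen phosphorylase of liver), Pgm2 and Ppp1r3b were in this state, and of the regulators Irs2, Foxo1, Foxo3, Foxo6 and Klf15. No gene of the 3 lists had its start site in a young domain only. Together 22 of the 76 genes in the lists (28.9%) shared the old-only state with Pck1 and Fbp1, beside the 30.5% of all genes given above.

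H3K9me3 was in the window of 9 of the 38 enzymes, 2 of the 14 glycogen genes and 2 of the 24 regulators in young livers (25.6% of all genes), and of 13, 4 and 9 in old livers (41.6%). Foxa2 sites were at 17, 8 and 16 of them in WT (30.5% of all genes) and at 21, 8 and 19 in Zmpste24 KO livers (38.5%).

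**Figure D5:**
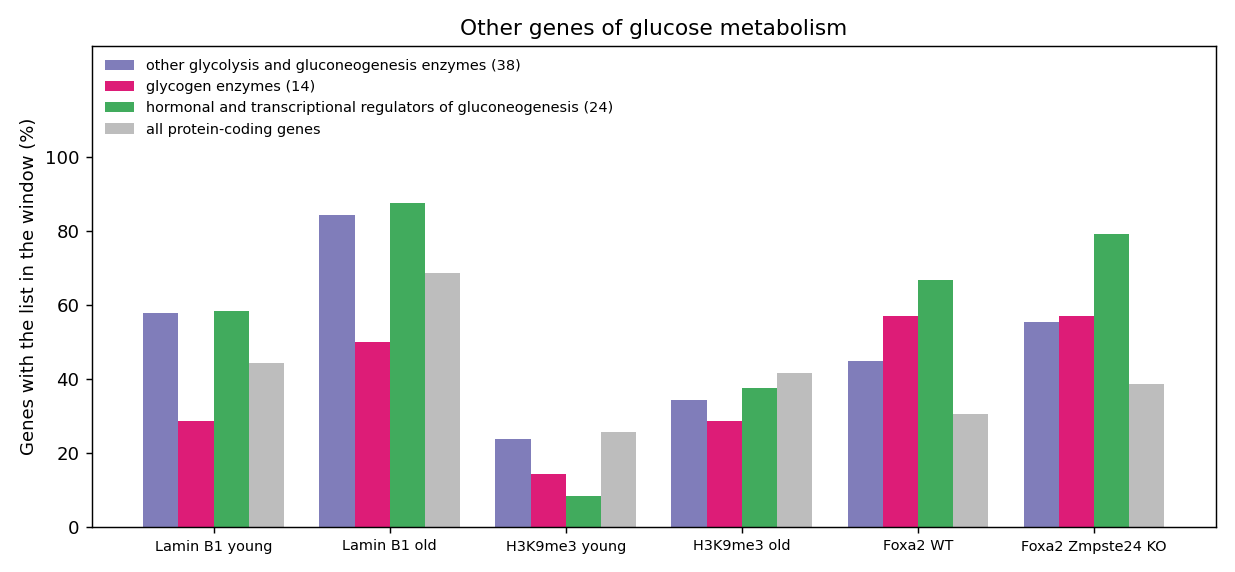
Percentage of genes with each called list in the window for 38 other enzymes of glycolysis and gluconeogenesis, 14 glycogen genes, 24 regulators of gluconeogenesis and all protein-coding genes. Old lamin B1 is in the window of 84.2% of the enzymes and 87.5% of the regulators, beside 68.5% of all genes, and of 7 of the 14 glycogen genes.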

How the data were processed

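ChIP-Seq lists of called regions from mouse liver were used as deposited by the authors; their values are genome positions, with no count, signal or score. For alignment to mm10 the authors used BWA; Picard removed duplicate reads, multiply aligned reads were discarded, and replicates were pooled. Epic gave the lamin B1 domains (10 kb windows, gap size 3) and PeakSeq the Foxa2 sites relative to input, after Zmpste24 KO reads had been downsampled to the WT number. The caller of the H3K9me3 regions was not given in the sources used here, although the submitters' processing notes name SICER. Age and genotype were taken from the name of each list, matched to the sample titles, and 0 columns were left unmatched. Read depth is not in the lists.

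The genes and gene lists were chosen with earlier results of these data known. Gene models were those of GENCODE vM21, promoters those of RefSeq and sequence that of GRCm38.p6, and the first base of a chromosome is 1. A window overlapped a region at 1 bp or more. A start site is the annotated 5' end of the gene. Named genes were the 9 genes, all protein-coding genes overlapping their windows, and genes of the 3 pathway lists with a pattern like 1 of the 9, a start site in lamin B1 at 1 age only, or 3 or more Foxa2 sites of a genotype. Motif words were searched on both strands. Alternatives to window, overlap, region length, site width, word and gene set were computed. The overlap and word code was tested on simulated data. Python 3.11.15, numpy 2.4.6, pysam 0.24.0, statsmodels 0.14.6 and matplotlib 3.10.9 were used. Some named results are not reported here. No test was run, since merged lists hold no replicates.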

Additional observations from a re-analysis of the deposited data

How the results depend on the processing

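Of 104 alternative values over 24 results, 75 were within the limits used and 29 moved. Counts over the 9 genes and covered lengths were held to 1.5 times the value reported, and shares of sites or of all genes to the 95% Wilson interval, which is wide for 5 or 6 sites and narrow for all genes. No paired analysis was possible because replicates were merged before calling, and for the same reason no replicate could be left out. With the gene body alone, H3K9me3 was at 1 (young) and 3 (old) of the 9 genes and covered 14.4% of their length in old livers, and Foxa2 was at 2 genes with 2 sites in WT and at 3 genes with 3 sites in Zmpste24 KO. With 10 kb on both sides, H3K9me3 was at 1 and 3 genes and WT Foxa2 at 2 genes with 2 sites. With 100 kb on both sides, WT Foxa2 was at 6 genes with 9 sites and Zmpste24 KO Foxa2 at 5 with 7, within the limits but with the order of the genotypes turned. The counts of genes with lamin B1 stayed at 5 (young) and 7 (old) under every window tried. The share of all genes was computed with 50 kb only, so none stands beside the counts at other windows. Without sites narrower than the median of their list, 3 WT sites were left, of which 0.0% held a forkhead word, and 0 Zmpste24 KO sites at 0 genes, so no share could be given there. Within 300 bases around the midpoint, 1 of the 6 WT and 1 of the 5 Zmpste24 KO sites held a forkhead word. With a reciprocal overlap of 50%, 0 sites were shared. The shares of all genes for young and old lamin B1, young and old H3K9me3, and WT and Zmpste24 KO Foxa2 were 35.1, 56.5, 27.5, 37.5, 23.2 and 31.6% over all annotated genes, and 46.8, 72.2, 26.9, 43.8, 32.0 and 40.2% without the X and Y chromosomes. With TTACGTCA as the cAMP response word, an alternative chosen after seeing the data, 1 promoter of the 9 genes held it in place of none.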

Other observations

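Among the further genes of glucose metabolism, several had the same pattern over the 6 lists as 1 of the 9 genes. Slc2a1 (the transporter GLUT1), Irs2 (an adaptor of the insulin receptor) and Foxo3 matched Pck1, with lamin B1 and H3K9me3 in old livers only and Foxa2 sites of both genotypes. Fbp2 matched its neighbour Fbp1. Hk1 and Got2 matched Tat, and Eno3, Phkg2 and Cebpb matched G6pc. Pfkfb3, Aldoc, Gapdh, Pgam1, Eno1, Crtc2 and Sik1 matched Pcx, while Pfkp, Pgk1, G6pc2, Gyg and Phka2 had none of the lists, like Pfkfb1. Pgk1 and Phka2 lie on the X chromosome, as Pfkfb1 does, where 99.7% of genes had no lamin B1 in the window at either age.

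None of the 9 genes had more than 2 Foxa2 sites of a genotype. The other genes of glucose metabolism below were named because they had 3 or more. Cebpa, a hepatic transcription factor, had 4 WT and 2 Zmpste24 KO sites in its window, and Mlxipl, the glucose-responsive factor that acts on Pklr, had 1 and 4. Klf15 had 2 and 4, Pck2 had 3 and 4, Nr3c1 (the glucocorticoid receptor) had 3 and 4, and Hnf4a had 3 and 1. Foxa2 itself had 3 WT and 2 Zmpste24 KO sites and no lamin B1 in its window at either age. At Irs2 and Gpt2 3 sites were called in each genotype. At Sds and Gbe1 2 WT and 3 Zmpste24 KO sites were called, and at Pfkfb2 1 and 3. Over all protein-coding genes the mean number of sites per window was 0.45 in WT and 0.596 in Zmpste24 KO livers. Of all these genes, 9.58% had 2 or more WT sites and 13.1% had 2 or more Zmpste24 KO sites. Most genes thus had fewer than 2 sites of a genotype, as did most of the 9. The share of all genes with 3 or more was not computed.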
